A study of Mus musculus with 4 samples.

Results

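The genes described here are 37 genes known as markers of astrocytes, chosen by name from the 22751 gene symbols kept in each library of a ribosome-tagging experiment in the mouse amygdala. All 37 were listed once in every library, and all 37 were among the 12415 genes tested. Every library came from NpyCre/+;TRAPlox/lox mice, which carry Cre recombinase at the Npy locus and a lox-controlled tagged ribosome allele. Translating ribosome affinity purification (TRAP) captures such ribosomes with their RNA. The groups were the immunoprecipitated RNA (IP, 2 libraries) and the total amygdala RNA from which it was drawn (input, 2 libraries), each library from RNA of 3 mice pooled, so that a replicate is a pool and not an animal. Both groups share the genotype and the tissue, and the labels used here give no age, sex or treatment. No Cre-negative or mock precipitation was analysed here, so RNA recovered without the tag was not measured. Whether every tagged cell expressed Npy when it was sampled was not tested either.

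Astrocytes are the glial cells that surround synapses and cover blood vessels with their endfeet. They clear glutamate from the synapse and turn it into glutamine, buffer potassium and water, store glycogen and release proteins that act on neurons. Their intermediate filament protein, GFAP, is a classical marker whose level differs between brain regions, and metallothioneins are small cysteine-rich proteins that bind zinc and copper. Npy encodes neuropeptide Y, which in the brain is made by neurons, many of them GABAergic. RNA of astrocytes is therefore not what this precipitation was aimed at, and the comparison asks how far each astrocyte transcript was depleted and which transcripts were not.

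Levels are given as FPKM, fragments per kilobase of transcript, scaled to the number of mapped fragments. Changes are log2 differences of FPKM + 1, IP minus input, tested with limma, and p-values are adjusted by the Benjamini-Hochberg method over all genes tested. The FPKM of a library summed to between 334759 and 335119 in input and to between 419349 and 423985 in IP. Read totals were not used here. The half-width of the confidence limits listed beside each value had a median over the astrocyte genes of 6.62% and 6.38% of the value in input replicates 1 and 2, and of 12.2% and 11.7% in IP replicates 1 and 2. Npy, the gene of the Cre driver, was 102 ± 4.38 FPKM in input against 1204 ± 51.7 in IP (SD, n = 2; log2 change 3.54, limma adjusted p = 1.63e-06). Rpl10a, which encodes a protein of the large ribosomal subunit, was 89.2 ± 3.15 and 152 ± 3.49 FPKM (log2 change 0.76, limma adjusted p = 5.85e-05).

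Of the 37 astrocyte genes, 35 were lower in IP, 1 was higher (Mt3, which turned to -0.15 with quantile normalization) and 1 did not pass the threshold of an adjusted p of 0.05 (Gfap). Among all genes tested, 33.9% were lower and 37% were higher. The median log2 change was -1.68 for the astrocyte genes and 0.03 for all genes tested. Expressed as the mean FPKM in IP relative to that in input, the astrocyte genes had a median of 25.9% with quartiles of 18.4% and 34.9%, and all genes tested had a median of 102%. Every member was above 2.5 FPKM in both input libraries. By the design text an IP and its input derive from the same mice, so these differences compare the precipitated RNA with the RNA it came from. They are relative levels within libraries and not amounts of RNA recovered. How astrocyte RNA came to be in IP was not tested.

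The depletion was graded. The IP level was under 25% of input for 18 genes, between 25% and 50% for 12, and 50% or more for 7. Those 7 were Atp1b2 (50.03%), Mt1 (53.5%), S100b (54.9%), Clu (60.6%), Sparcl1 (84.6%), Gfap (92.3%) and Mt3 (132%). Both IP values lay below both input values for 35 genes, a pattern found in 41.4% of all genes tested. The listed confidence intervals of both IP libraries lay below those of both input libraries for the same number, 35, against 27.3% of all genes tested. Of the 37, 31 reached FPKM of 1 in all 4 libraries, of which 29 were lower with a median change of -1.68. The other 6 (Slc7a10, Slco1c1, Phkg1, Plcd4, Itih3 and Entpd2) reached it only in input, so they had to be lower to be counted at all.

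**Figure D1:**
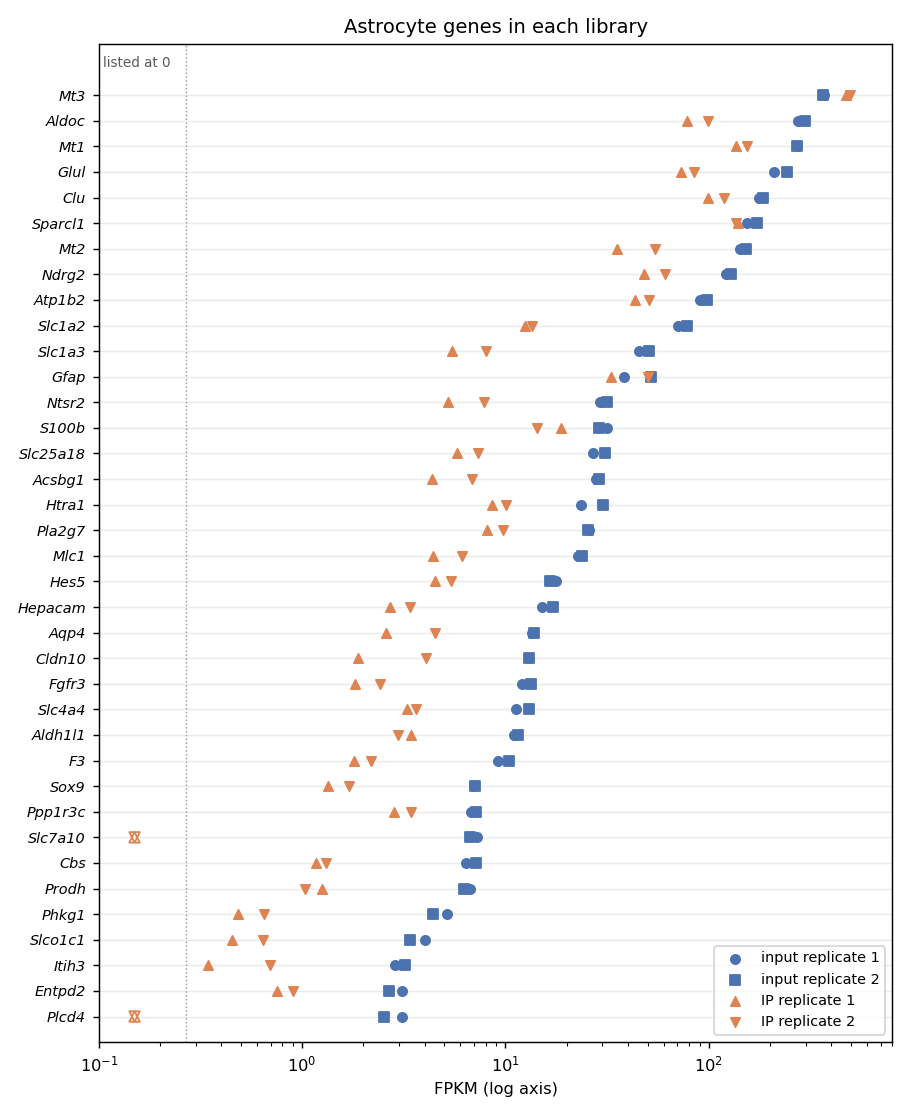
FPKM of the 37 astrocyte genes (log axis) in each of the 4 libraries, ordered by mean input level, with input in blue, IP in orange and open symbols for values listed at 0. IP symbols lie left of input symbols for 35 genes, those of Gfap overlap, and those of Mt3 lie to the right as deposited, a direction that turned with quantile normalization (-0.15).

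Among the role groups, genes of glutamate and amino acid handling had the lowest median IP level, 17.7% of input with Slc7a10 counted at 0, and 7 of 7 were lower. Differences between role groups were not tested. Slc1a3 encodes the glutamate transporter GLAST and was 45.6 and 50.6 FPKM in input replicates 1 and 2, against 5.47 and 8.04 in IP replicates 1 and 2. This was a 7.12-fold difference of means, the largest log2 change among members above 0 in all libraries (-2.68, SE 0.15, limma adjusted p = 4.03e-05). Slc1a2, the gene of the other main astrocyte glutamate transporter, GLT-1, was at 70.6 and 78.3 FPKM in input against 12.5 and 13.6 in IP (5.72-fold, log2 change -2.43, SE 0.07, limma adjusted p = 1.22e-05). For both transporters the groups lay far apart beside the spread between replicates. Glul encodes glutamine synthetase, which converts glutamate to glutamine. It was the fourth most abundant astrocyte gene in input, at 209 and 242 FPKM, and fell to 72.7 and 84.6 in IP, 34.9% of input, the highest share in this group. The ratio of Glul to Slc1a2 within a library was accordingly 2.96 and 3.09 in input and 5.83 and 6.23 in IP.

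The mitochondrial glutamate carrier gene Slc25a18 fell from 28.9 ± 2.57 to 6.56 ± 1.06 FPKM (SD, n = 2), and Prodh, whose product starts the breakdown of proline, from 6.46 ± 0.300 to 1.15 ± 0.155. Cbs, which encodes cystathionine beta-synthase of the transsulfuration pathway, was at 6.40 and 7.12 FPKM in input against 1.17 and 1.31 in IP, 18.4% of input. Their log2 changes were -1.99, -1.80 and -1.79 (limma, adjusted p = 3.15e-05 to 3.94e-05). Slc7a10, the gene of the neutral amino acid transporter Asc-1, was listed at 7.21 and 6.68 FPKM in input against 0 in both IP libraries. Plcd4, a phospholipase C gene, was likewise listed at 3.10 and 2.54 in input and at 0 in both IP libraries. An exact 0 in these files can be a failed estimate. Among genes with a mean input FPKM of at least 2, 34 were listed at 0 in both IP libraries. They include Prpf39, which encodes a splicing factor that cells use widely. No fold change is therefore given for Slc7a10 or Plcd4, and without both, 33 of 35 astrocyte genes were lower, with a median change of -1.61 and a median IP level of 28.6% of input. Exons of Slc7a10 and Plcd4 also overlap those of Lrp3 and Zfp142 on the opposite strand. In all, 11 of the 37 genes share exonic sequence with another annotated gene, Slc1a2, Glul, Hes5, Fgfr3, Aldh1l1 and Pla2g7 among them.

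Genes of water and ion transport, junctions and the blood-brain interface were lower in 7 of 7 cases, with a median IP level of 22.8% of input. Aqp4, the water channel of astrocyte endfeet, was at 13.5 and 13.8 FPKM in input against 2.58 and 4.48 in IP. Both IP values were well below input, but the IP replicates differed between themselves, so that the IP level was 19.1% of input in pool 1 and 32.6% in pool 2 (log2 change -1.72, SE 0.19, limma adjusted p = 0.000366). Cldn10, a claudin gene, differed likewise between pools, at 13.06 and 12.98 FPKM in input against 1.88 and 4.06 in IP. It had the largest standard error of the list (log2 change -1.88, SE 0.24, limma adjusted p = 0.000703), and its call was lost when no filter on low values was used (adjusted p = 0.0511). Mlc1 and Hepacam encode membrane proteins that form a complex at astrocyte junctions. Mlc1 fell from 23.2 ± 0.760 to 5.24 ± 1.19 FPKM and Hepacam from 16.2 ± 1.39 to 3.04 ± 0.479 (SD, n = 2), to 22.5% and 18.8% of input. The ratio of Aqp4 to Mlc1 was 0.593 and 0.579 in input and 0.586 and 0.737 in IP, and the groups overlapped.

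Slc4a4, the gene of a sodium bicarbonate cotransporter, was at 28.6% of input in IP, and Slco1c1, which encodes a transporter of thyroid hormone, at 14.8%. Slco1c1 was below 1 FPKM in both IP libraries, at 0.452 and 0.642. Atp1b2 encodes a beta subunit of the sodium-potassium pump and was depleted least in this group. Its level was 90.0 and 98.4 FPKM in input against 43.4 and 50.9 in IP (log2 change -0.99, SE 0.09, limma adjusted p = 0.000155).

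**Figure D2:**
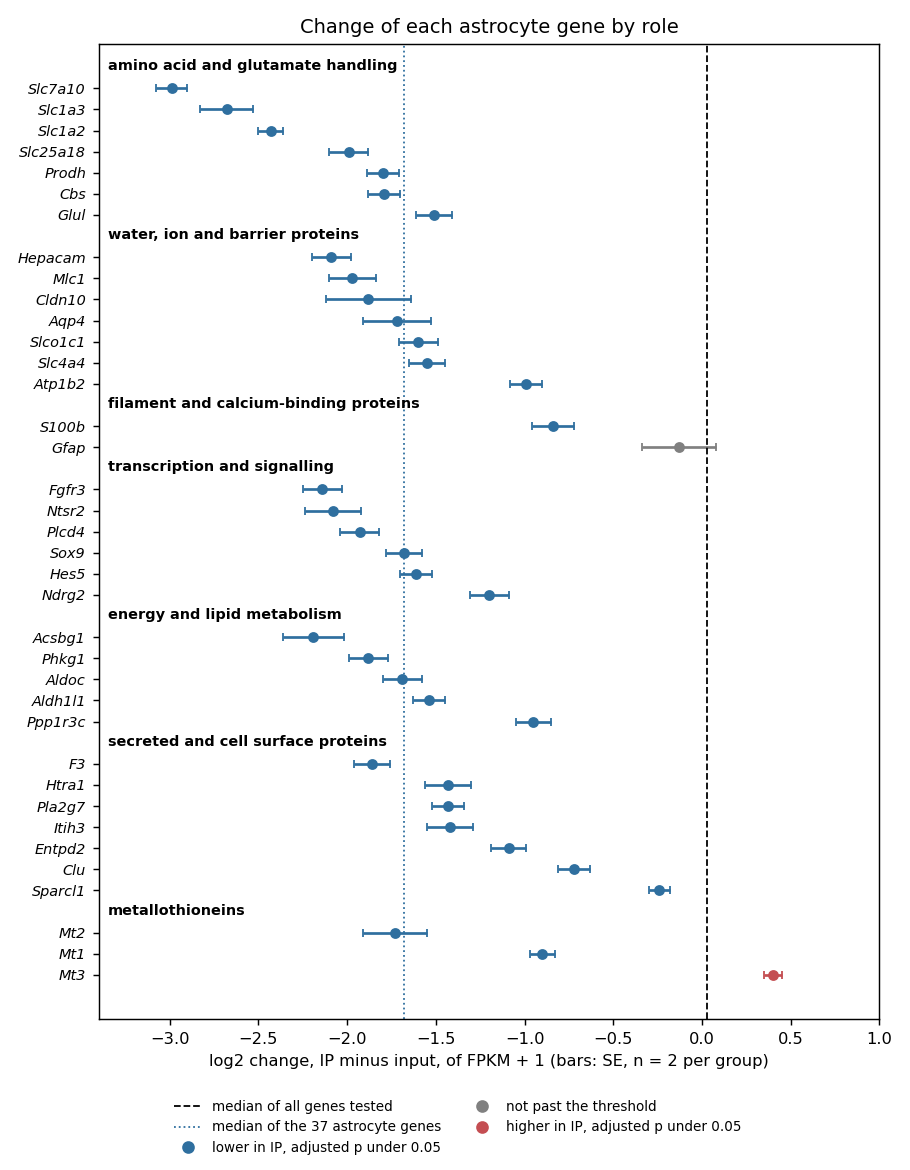
Change of each astrocyte gene on the log2 scale (IP minus input, FPKM + 1), grouped by role, with bars for the standard error of the fit (n = 2 per group). Gfap lies at -0.13, Sparcl1 at -0.24 and Mt3 at 0.40 (-0.15 with quantile normalization), against a median of -1.68 for the 37 genes (dotted line) and 0.03 for all genes tested (dashed line).

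All 6 genes of transcription and signalling were lower, with a median IP level of 21.5% of input that counts Plcd4 at 0. Fgfr3, a fibroblast growth factor receptor gene, went from 12.04 and 13.3 FPKM in input to 1.83 and 2.41 in IP (log2 change -2.14, SE 0.11, limma adjusted p = 3.27e-05). Ntsr2, the gene of a neurotensin receptor found on astrocytes, went from 29.2 and 31.6 to 5.24 and 7.86 FPKM (log2 change -2.08). The transcription factor genes Sox9, which acts in glial specification, and Hes5, a target of Notch signalling, were at 21.6% and 29.0% of input. Sox9 was 6.99 and 7.09 FPKM in input against 1.34 and 1.70 in IP, and the groups did not overlap for either gene. Ndrg2 was retained more than the others of this group, at 122 and 128 FPKM in input against 47.8 and 61.0 in IP, 43.5% of input.

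In energy and lipid metabolism 5 of 5 genes were lower, with a median IP level of 28.6% of input. Aldoc encodes the brain form of the glycolytic enzyme aldolase and ranked second among the astrocyte genes in input. It was at 275 and 298 FPKM in input against 78.2 and 99.4 in IP (log2 change -1.69, SE 0.11, limma adjusted p = 5.92e-05). Aldh1l1 encodes a folate enzyme widely used to mark astrocytes, and it was at 11.0 and 11.5 FPKM in input against 3.44 and 2.97 in IP, a log2 change of -1.54. Unlike most members, Aldh1l1 was lower in IP replicate 2 than in IP replicate 1. Acsbg1, a fatty acid activating enzyme gene, changed by -2.19, from 27.9 and 28.9 FPKM to 4.34 and 6.83. Both remaining genes act on glycogen. Phkg1, a catalytic subunit gene of phosphorylase kinase, showed the largest ratio of means among members above 0 in IP, 8.43-fold, from 5.14 and 4.41 FPKM to 0.483 and 0.648, although its exons overlap Sumf2 on the opposite strand. Ppp1r3c, which encodes a glycogen-targeting subunit of protein phosphatase, fell less, from 6.79 and 7.14 to 2.82 and 3.44 FPKM (44.96% of input).

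Secreted and cell surface genes were lower in 7 of 7 cases but spread widely, from 16.99% of input for Itih3 to 84.6% for Sparcl1. F3, the tissue factor gene, fell from 9.82 ± 0.838 to 1.99 ± 0.257 FPKM (SD, n = 2), and Itih3, which encodes a heavy chain of the inter-alpha-trypsin inhibitor, from 3.05 ± 0.245 to 0.518 ± 0.247. Htra1, a secreted serine protease gene, and Pla2g7, the gene of a secreted phospholipase, were at 34.7% and 34.8% of input, each with a log2 change of -1.43. Entpd2, an ectonucleotidase gene, was at 28.7%, and it shares exonic sequence with Npdc1 on the same strand, so its reads may not all be its own. Clu, the gene of the extracellular chaperone clusterin, was abundant in both groups, at 176 and 184 FPKM in input against 99.5 and 119 in IP (log2 change -0.72, SE 0.09, limma adjusted p = 0.000527).

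Sparcl1, which encodes hevin, an astrocyte-secreted protein that promotes synapse formation, was at 154 and 172 FPKM in input against 139.7 and 136 in IP. Both IP values were below both input values, by little. Its change of -0.24 (SE 0.06) passed the threshold (limma, adjusted p = 0.0153) but no longer did without input replicate 2 (-0.16, adjusted p = 0.0821), without IP replicate 2 (-0.22, adjusted p = 0.0557) or with no filter on low values (adjusted p = 0.12). After rescaling each library to a common sum it was -0.58, and with quantile normalization -0.69. Sparcl1 lies on chromosome 5 from 104079109 to 104114088 on the minus strand (mm10, whole gene).

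Gfap, the gene of glial fibrillary acidic protein, was the member whose change did not pass the threshold. It was at 38.2 and 51.9 FPKM in input replicates 1 and 2 and at 33.0 and 50.1 in IP replicates 1 and 2. The replicate 2 library was the higher one in each group, and the groups overlapped. The means were 45.02 ± 9.67 in input and 41.5 ± 12.1 in IP (SD, n = 2), and the log2 change was -0.13 (SE 0.21, limma adjusted p = 0.616). The spread between replicates of Gfap was large beside this difference, and a modest depletion would not have been detectable in this unpaired fit with 2 pools per group. With the replicate number as a block the change kept its size and did not pass (limma, adjusted p = 0.0979). With 1 library left out, which leaves its pool unpaired, the change was -0.34 without input replicate 1 and 0.09 without input replicate 2. It was 0.17 without IP replicate 1 and -0.42 without IP replicate 2. Within each pool the IP level was below input, at 86.4% of input in pool 1 and 96.6% in pool 2. Gfap ranked just below Slc1a3 in input but was the tenth highest of the 37 in IP. S100b, which encodes a calcium-binding protein used as a marker beside GFAP, was at 31.4 and 28.9 FPKM in input against 18.8 and 14.3 in IP (log2 change -0.84, SE 0.12, limma adjusted p = 0.00121), a call lost with no filter (adjusted p = 0.0574).

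Ratios between astrocyte genes within one library do not depend on how libraries are scaled to each other. Gfap relative to Slc1a3 was 0.838 and 1.03 in input and 6.03 and 6.23 in IP, a 6.61-fold shift. Slc1a3 had the largest log2 change among members above 0 in all libraries, so this pair sets extremes of the list against each other. Relative to Aqp4, Gfap was 2.84 and 3.77 in input and 12.8 and 11.2 in IP. Relative to Aldh1l1 it was 3.48 and 4.52 in input and 9.60 and 16.9 in IP. For these 3 partners all IP ratios exceeded all input ratios, whereas with S100b they overlapped (1.21 and 1.80 in input, 1.75 and 3.50 in IP). With 2 libraries against 2 the two-sided exact permutation test cannot go below p = 0.333, the value it gave for each ratio without overlap here, and it gave 0.667 for Gfap over S100b. Set against the geometric mean of the 30 other members with FPKM of at least 1 in all libraries, Gfap was 1.12 and 1.43 in input and 3.46 and 4.31 in IP, and Sparcl1 was 4.72 and 4.93 in input and 15.4 and 12.1 in IP. For Gfap this was a 3.05-fold shift.

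**Figure D3:**
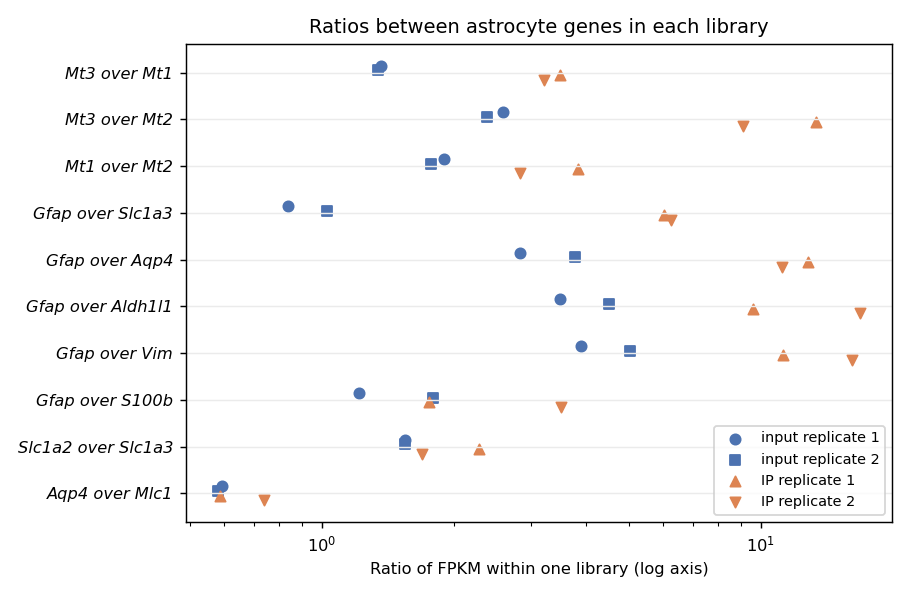
Ratios of FPKM between pairs of astrocyte genes, and of Gfap to Vim, within each library (log axis), with input in blue and IP in orange. Gfap over Slc1a3 moved from 0.838 and 1.03 in input to 6.03 and 6.23 in IP, while the groups overlap for Gfap over S100b and for Aqp4 over Mlc1.

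The metallothionein genes Mt1, Mt2 and Mt3 lie within 27.7 kb of each other on the plus strand of chromosome 8 (mm10), Mt3 from 94152607 to 94154148, Mt2 from 94172618 to 94173567 and Mt1 from 94179089 to 94180327. Mt1 and Mt2 are the widely expressed forms that respond to metals and glucocorticoids, and Mt3 is the brain form. The 280 bases around their starts are printed, 250 before and 30 from the start on, 5′ to 3′ on the gene's strand. They come from RefSeq (GRCm38.p6, which is mm10), and any relation to the changes was not tested. The windows are chr8:94178839-94179118 for Mt1, chr8:94172368-94172647 for Mt2 and chr8:94152357-94152636 for Mt3. Capitals mark the core of the metal response element, searched as TGCACNC or TGCGCNC on both strands.
Mt1: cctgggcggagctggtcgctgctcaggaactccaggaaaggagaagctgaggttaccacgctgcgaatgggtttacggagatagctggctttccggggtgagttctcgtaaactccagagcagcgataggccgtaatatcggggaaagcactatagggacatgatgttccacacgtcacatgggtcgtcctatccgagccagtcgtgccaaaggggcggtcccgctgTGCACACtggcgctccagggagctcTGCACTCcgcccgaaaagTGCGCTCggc
Mt2: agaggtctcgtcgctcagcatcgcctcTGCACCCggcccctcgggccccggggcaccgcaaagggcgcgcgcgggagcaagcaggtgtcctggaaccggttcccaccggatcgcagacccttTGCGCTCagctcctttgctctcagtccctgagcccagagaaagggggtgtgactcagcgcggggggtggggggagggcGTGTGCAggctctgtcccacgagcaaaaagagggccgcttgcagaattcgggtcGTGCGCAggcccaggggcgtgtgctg
Mt3: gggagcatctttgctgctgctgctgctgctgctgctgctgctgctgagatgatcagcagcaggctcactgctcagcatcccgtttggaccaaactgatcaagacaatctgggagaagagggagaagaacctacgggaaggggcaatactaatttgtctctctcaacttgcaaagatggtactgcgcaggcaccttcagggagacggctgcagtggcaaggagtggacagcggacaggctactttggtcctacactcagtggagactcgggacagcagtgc
The core was matched 3 times in the Mt1 window, 4 times in the Mt2 window and 0 times in the Mt3 window. At least 1 match was present in 24.1% of 32851 windows of this length, at least 3 in 1.73% and at least 4 in 0.405%. Of the 32 astrocyte genes with a window, 6 had a match in at least 1 window. Some genes have more than 1 window, so this count is not on the scale of the share of windows. A match describes the letters of the window and is not evidence of binding.

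Mt3 was the most abundant astrocyte gene in both groups and the member that was higher in IP. It was at 369 and 364 FPKM in input against 475 and 495 in IP, so both IP values exceeded both input values, a pattern found in 45.0% of all genes tested. The means were 367 ± 3.33 and 485 ± 14.5 (SD, n = 2), a log2 change of 0.40 (SE 0.05, limma adjusted p = 0.000447). The direction depended on the processing. The log2 change was 0.46 with size factors by median of ratios (limma, adjusted p = 0.000298). It was 0.06 after rescaling to a common sum (adjusted p = 0.278), -0.15 with quantile normalization (adjusted p = 0.0378) and -0.0014 (adjusted p = 0.98) once changes were corrected for transcript length. Rescaling also moved the median of all genes from 0.03 to -0.29, and relative to that median Mt3 changed by 0.38 as deposited and by 0.36 after rescaling, but by -0.19 with quantile normalization and by -0.08 with the length correction.

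Mt1 was at 270.4 and 272 FPKM in input against 136 and 154 in IP, 53.5% of input (log2 change -0.90, SE 0.07, limma adjusted p = 8.39e-05). Mt2 was at 142 and 153 FPKM in input against 35.5 and 54.3 in IP, 30.4% of input (log2 change -1.73, SE 0.18, limma adjusted p = 0.000295). Reads of these related genes may be split between them by the counting, and an antisense gene, Gm45774, overlaps Mt2, so their separate values are uncertain. Within a library, Mt3 over Mt1 was 1.36 and 1.34 in input and 3.49 and 3.21 in IP, and Mt3 over Mt2 was 2.59 and 2.38 in input and 13.4 and 9.11 in IP. Both ratios were thus higher in each IP library than in either input library, by 2.48-fold and 4.45-fold. Mt1 over Mt2 went from 1.90 and 1.77 to 3.83 and 2.84. Mt3 made up 16.01% and 14.9% of the summed FPKM of the 37 genes in input and 37.5% and 34.7% in IP. That sum was 2306 and 2451 FPKM in input against 1264 and 1427 in IP, or 56.6% of input, and 42.8% without Mt3.

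For Gfap the window chr11:102897171-102897450 (GRCm38.p6, minus strand) is shown because STAT3 is a known regulator of this gene. Any relation of the window to the level of Gfap in IP was not tested. The gene itself spans 102887336 to 102897200 on chromosome 11. Capitals mark the STAT motif, searched as TTCNNNGAA, which reads the same way on both strands.
Gfap: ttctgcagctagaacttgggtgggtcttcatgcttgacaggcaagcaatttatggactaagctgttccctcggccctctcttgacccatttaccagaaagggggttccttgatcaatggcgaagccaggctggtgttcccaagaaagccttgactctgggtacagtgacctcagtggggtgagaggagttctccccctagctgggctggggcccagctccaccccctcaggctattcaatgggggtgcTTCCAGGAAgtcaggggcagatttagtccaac
The motif was matched 1 time, across the start site, and it was present in 7.83% of all windows of this length. Of the 32 astrocyte genes with a window, 7 had it in at least 1 window. Some of these genes have more than 1 window, up to 3 for Ndrg2, so this count is not on the scale of the share of windows. These counts refer only to the letters of the windows. Sequence outside the window was not searched, and whether STAT3 uses the matched site was not tested.

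Astrocyte genes tended to be higher in replicate 2 than in replicate 1, most often in IP. Of the 37 genes, 31 (83.8%) were higher in IP replicate 2 than in IP replicate 1, against 48.0% of all genes tested, and 26 (70.3%) were higher in input replicate 2, against 46.9%. The IP level relative to the input of the same pool was higher in pool 2 for 28 genes. The exceptions in IP were Prodh, Aldh1l1, S100b and Sparcl1, besides Slc7a10 and Plcd4 at 0 in both. In other lists, 13 of 13 oligodendrocyte genes, 7 of 8 precursor genes, 9 of 12 microglial genes and 10 of 12 GABAergic genes were also higher in IP replicate 2, so this was not limited to glia. It held for 3 of 8 reactive astrocyte genes, 3 of 10 pan-neuronal genes and 2 of 10 glutamatergic genes. Without IP replicate 1 the median change of the 37 genes was -1.50, and without IP replicate 2 it was -1.73.

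A further list of 40 astrocyte genes that are not among the 37 had 39 tested, of which 37 were lower, 1 was higher and 1 did not pass, with a median change of -1.30 and a median IP level of 29.2% of input. Some of the lower genes were below 1 FPKM in both IP libraries, so they had to be lower to be counted at all. Gja1, which encodes the gap junction protein connexin 43, was at 29.9 and 30.3 FPKM in input against 3.75 and 4.89 in IP, a log2 change of -2.56 (limma, adjusted p = 2.21e-05). Mfge8, a gene of a secreted phagocytosis protein, changed by -2.39, and the receptor gene Gpr37l1 and the second astrocyte connexin gene, Gjb6, by -2.34 and -2.19. The exceptions were Sox2 and Pygb. Sox2, a transcription factor gene of neural progenitors and astrocytes, was at 16.1 and 13.7 FPKM in input against 21.2 and 23.7 in IP, a log2 change of 0.56 (limma adjusted p = 0.00215). That call was lost after rescaling (0.25, adjusted p = 0.0637) and with no filter (adjusted p = 0.0601). Pygb, the brain glycogen phosphorylase gene, differed by 0.01 (limma, adjusted p = 0.891) and was lower after rescaling (-0.33, adjusted p = 0.00222) and with quantile normalization (-0.28, adjusted p = 0.00575). Both were named after their values were seen. So was Ntrk2, counted among the lower genes (-0.24, limma adjusted p = 0.0159). Its call was lost with no filter (adjusted p = 0.0965), and with the length correction it was higher (0.18, adjusted p = 0.0446).

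Of 24 genes known to be raised in reactive astrocytes, 8 passed the filter, with 5 lower, 1 higher and 2 not past the threshold (median -0.62, median IP level 60.1% of input). Vim encodes vimentin, a filament protein that assembles with GFAP. It was at 9.81 and 10.3 FPKM in input against 2.93 and 3.10 in IP, a log2 change of -1.46 (limma adjusted p = 3.2e-05). The ratio of Gfap to Vim was 3.89 and 5.05 in input and 11.3 and 16.2 in IP, higher in both IP libraries than in either input library. S1pr3, a sphingosine phosphate receptor gene named after its values were seen, was the 1 higher gene (0.35, limma adjusted p = 0.0434), a call lost after rescaling (0.21, adjusted p = 0.319), with no filter (adjusted p = 0.191) and without input replicate 1 (0.20), IP replicate 1 (0.31) or IP replicate 2 (0.39, adjusted p = 0.164, 0.142 and 0.079 in this order). The heat shock protein gene Hspb1 changed by -1.66, the complement inhibitor gene Serping1 by -1.46 and the adhesion protein gene Amigo2 by -0.91. Hspb1 and Serping1 were below 1 FPKM in both IP libraries, so they had to be lower to be counted at all. Serpina3n and Stat3, chosen after their values were seen, differed by -0.07 and -0.0027 on the log2 scale and did not pass (limma, adjusted p = 0.609 and 0.972). After rescaling both were lower (-0.39, adjusted p = 0.036, and -0.33, adjusted p = 0.00401), and with the length correction Stat3 was higher (0.25, adjusted p = 0.0108).

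Lists of other cell types place these values. All 13 oligodendrocyte genes were lower, with a median IP level of 19.7% of input, and all 12 microglial genes, with a median of 8.07%. Of 8 oligodendrocyte precursor genes, 7 were lower (median 15.5%), and the 6 endothelial and mural genes tested were all lower (median 14.7%), as were 3 of the 5 ependymal and choroid plexus genes (median 23.7%). Most microglial genes were below 1 FPKM in both IP libraries, as were some precursor, endothelial and mural, and ependymal and choroid plexus genes. Such genes passed the filter only through input and had to be lower to be counted at all. The order of the lists depended on the scale, since the median log2 change was -1.68 for the astrocyte genes, -1.17 for the endothelial and mural genes and -1.05 for the ependymal and choroid plexus genes, and differences between lists were not tested. Of 10 glutamatergic genes, 7 were lower (median 47.7%), and 12 of 12 GABAergic genes were higher (median 498%). With the replicate number as a block, 9 of the 10 glutamatergic and 5 of the 5 ependymal and choroid plexus genes were lower. The FPKM of the GABAergic list summed to 752.8 to 778.6 in input and 7110 to 7350 in IP. Most of the IP sum came from 2 of its genes, Sst and Npy, the latter the gene of the Cre driver. In IP replicates 1 and 2, Sst was at 4562 and 4756 FPKM and Npy at 1240 and 1167. For the 37 astrocyte genes the sums were 2306 to 2451 and 1264 to 1427, and for the oligodendrocyte list 527.6 to 571 and 118.1 to 134.1. The pan-neuronal list had a median of 115%, with 6 genes higher and 2 lower, and its median change of 0.20 became -0.14 after rescaling and -0.19 with quantile normalization. The part that RNA of other cells had in the levels of Gfap, Mt3 or Sparcl1 was not tested.

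**Figure D4:**
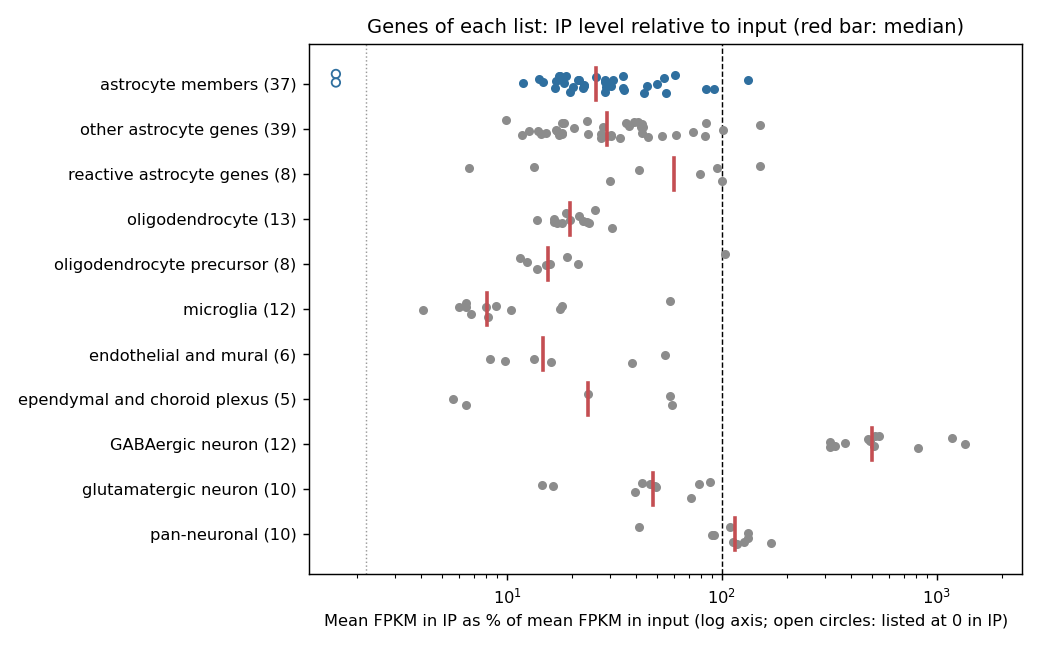
Mean FPKM in IP as a percentage of mean FPKM in input (log axis) for each tested gene of the 37 astrocyte genes and of 10 other lists, with the list median as a red bar and genes listed at 0 in IP as open circles. The astrocyte median is 25.9%, the microglial median 8.07% and the GABAergic median 498%.

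Abundance and transcript length also varied with the size of the change among the 37 genes. Across genes, which are not independent replicates and whose values come from the same 4 libraries, the input level correlated with the log2 ratio of FPKM at a Spearman rho of 0.607 and a Pearson r of 0.628 (n = 35 genes above 0). Over all 37 genes, the input level correlated with the log2 change less strongly, at a rho of 0.289 and an r of 0.403. In each case the input level enters both quantities. Transcript length, from 511 to 11595 bases with a median of 2725, correlated with the log2 change at a rho of -0.336 and an r of -0.397 over the 37 genes. Over all genes tested with a length the values were -0.368 and -0.308, so a relation of this kind was not limited to astrocyte genes. Its part in the values of single genes was not tested beyond the length correction given for Mt3, under which Gfap still did not pass and the median of the 37 genes was -1.55.

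**Figure D5:**
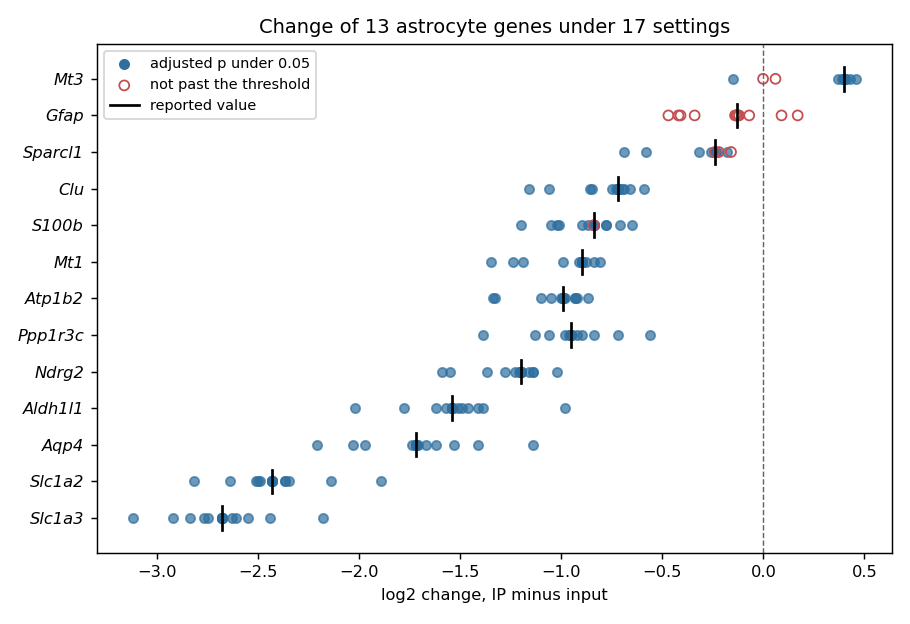
Change on the log2 scale (IP minus input) of 13 astrocyte genes under the 17 settings computed, with filled points for an adjusted p under 0.05, open points for values not past the threshold and a black bar for the value reported. Gfap ranges from -0.47 to 0.17 and is open throughout, Mt3 crosses 0, and Slc1a2 and Slc1a3 are filled throughout.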

How the data were processed

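Libraries were made with a TruSeq kit from 200 ng of RNA, per the labels' protocols and the series' design text, and sequenced as single-end reads of 100 bases. TopHat aligned the reads to mm10 using UCSC transcripts from iGenomes, as the design text says without versions. The authors deposited 1 Cufflinks table per library, which per the file headers holds an FPKM for each gene with its confidence limits and status. Neither a scaling between libraries nor a strand setting is recorded, and reads of overlapping genes cannot be told apart. Groups and replicate numbers came from the sample titles. IP replicate 2 is called replicate 1 in its source description, and its title was used. By the design text an IP and its corresponding input derive from the same mice, so equal numbers pair the samples. The deviations of IP replicate 1 and input replicate 1 from their group means correlated at 0.162 across genes. Replicates shared 0 identical values at FPKM of 5 or more, and listed confidence intervals did not touch for 8.71% of tested genes when comparing the input libraries and for 12.3% when comparing the IP libraries.

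From the 24490 entries of a library, the 8 entries with a failed status and 1290 of small RNA genes were left out, and the entry with the highest mean was kept for a repeated symbol. A gene was tested if 2 or more libraries reached an FPKM of 1. The values log2(FPKM + 1), which understate changes of low genes, were fitted with limma 3.58.1 in R 4.3.3 (lmFit, then eBayes with its trend option, no block), and the two-sided p-values were adjusted by the Benjamini-Hochberg method, with 0.05 as the threshold. Means, folds and percentages are of FPKM. Since FPKM are normalized values, a count model was not fitted. Each p-value rests on 2 pools a group, and eBayes moderates the variance of a gene with that of other genes at similar levels. Summaries used pandas 2.3.3, numpy 2.4.6 and scipy 1.17.1 under Python 3.11.15, and plots matplotlib 3.10.9. The fit was tested on simulated data.

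All 37 members were named. From each other list the tested genes with the largest changes, up to 4, were eligible. The members and lists were chosen with earlier results of these data known, so lists are described by counts and medians without a test. The alternatives changed the pseudocount (0.1 or 5), the filter (none, or FPKM of 5), the scaling (every library brought to 1000000 in sum, size factors by median of ratios, or quantiles), the eBayes options (no trend, robust), the handling of repeated symbols (summed), the block (replicate number), the transcript length (corrected for) and the libraries (each left out once). The counts without members at 0 in IP, and over members with FPKM of at least 1 in all libraries, were added after the data were seen. RefSeq promoter windows were matched by symbol. GENCODE transcript lengths were available for 99.4% of genes tested.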

Additional observations from a re-analysis of the deposited data

How the results depend on the processing

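Of 587 values of the 37 astrocyte genes under 16 alternatives, 577 kept their direction and their side of the threshold, 6 kept the direction but no longer passed and 4 had the opposite sign. The 32 genes besides Mt3, Gfap, Sparcl1, S100b and Cldn10 kept both under every alternative in which they were tested. The opposite signs were those of Mt3, -0.15 with quantile normalization and -0.0014 with the length correction, and of Gfap, 0.09 without input replicate 2 and 0.17 without IP replicate 1, neither past the threshold (-0.42 to 0.17 with 1 library left out). The cause was not tested. The number of members lower was 35 in most settings, 32 with no filter, 36 with quantile normalization (including Mt3), 30 of 32 with a filter at FPKM of 5 (fewer genes were tested), and 34 to 35 with 1 library left out. The median change of the members was -1.97 with a pseudocount of 0.1, -1.08 with a pseudocount of 5, -2.21 after rescaling and -1.73 to -1.50 with 1 library left out. Relative to the median of all genes it was -1.70 as deposited and -1.91 after rescaling. Over all genes, 2437 were lower with a filter at FPKM of 5, where 9009 were tested, and 6691 were lower and 2227 higher after rescaling, against 4204 and 4598. Higher genes then made up 24.97% of all calls, against 52.2%, and 63.3% with the filter at FPKM of 5. With the replicate number as a block, which the shared pools justify, 35 members were lower with a median of -1.68, 4370 genes were lower and 4748 higher, and no call of a member changed. The counts of 2 other lists did, as given beside them. When a group is left with 1 library, that library is assumed to vary like the other group. Genes under 1 FPKM in IP have the widest confidence limits, up to 42.6% of the value among the members.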
